A study of Mus musculus with 4 samples.

Results

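The *Pax* genes encode paired-domain transcription factors, and 7 of their members (*Pax1*, *Pax2*, *Pax3*, *Pax6*, *Pax7*, *Pax8* and *Pax9*) were followed here by gene symbol among 31055 genes counted by scRNA-seq. Cells came from the caudal part of E8.5 mouse embryos on a C57BL/6 background, born of *Grhl3*+/- intercrosses. Caudal tissue of 5 WT embryos made 1 pool and that of 3 *Grhl3*-null embryos, which lack the transcription factor GRHL3 in every cell, made another. Each pool was run as 2 droplet reactions, so there were 4 libraries, 2 WT and 2 *Grhl3*-null. Every genotype comparison below therefore compares 2 pools of cells, and the spread between libraries of a genotype holds no spread between embryos.

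All members bind DNA through a paired domain, and *Pax3*, *Pax6* and *Pax7* add a homeodomain. In the embryo, *Pax3* and *Pax7* act in the dorsal neural tube, the neural crest and the dermomyotome of the somite, and mice without *Pax3* have open neural tubes. *Pax6* acts in neural progenitors of the intermediate neural tube, *Pax1* and *Pax9* in the sclerotome and the pharyngeal endoderm, and *Pax2* and *Pax8* in the intermediate mesoderm that forms the kidney.

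After filtering, 20198 cells remained, 4781 to 5459 per library, with medians of 33391 to 38070 unique molecular identifiers (UMIs, each marking 1 captured transcript) per cell. No 2 libraries shared more than 7 cell barcodes. *Grhl3* held 431 and 326 UMIs in WT cells of the surface ectoderm or neural plate border class and 3 and 4 UMIs in *Grhl3*-null, as the labels state. Clusters were rebuilt without the *Pax* genes and named from the study's marker genes, so every cell type name below means "like" that type, and a difference from the study's own clusters may come from this. Of these classes, 14 were named and 13, an unnamed cluster included, held enough cells for tests. Pre-somitic mesoderm had 501 and 483 cells in WT and 4 and 4 in *Grhl3*-null and was not tested. The pools also differed in 2 ways that touch many results, the sex of the cells and their posterior Hox genes, which are switched on in sequence as the body axis extends. Over all filtered cells, male cells made 23.1% and 23.6% of WT and 47.0% and 48.1% of *Grhl3*-null, and the shares varied by class. In neuromesodermal progenitors they were close, at 34.0% and 33.2% of WT and 35.3% and 36.8% of *Grhl3*-null. Among neuroepithelium cells, male cells made 6.11% and 6.04% of WT and 75.7% and 77.4% of *Grhl3*-null, and cells with a UMI of a posterior Hox gene (*Hoxc10*, *Hoxd10*, *Hoxa10*, *Hoxa11* or *Hoxd11*) made 48.9% and 52.9% of WT and 3.44% and 0.906% of *Grhl3*-null. The study gives the same somite stage for the embryos of both genotypes. Whether the pools differed in developmental stage or in the axial level of their cells was not tested, and neither can be told apart from genotype here.

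At least 1 *Pax* UMI was found in 43.9% and 44.1% of WT cells and in 51.7% and 52.1% of *Grhl3*-null cells. In WT the share was highest in paraxial mesoderm (88.1% and 88.1%), followed by intermediate mesoderm (77.3% and 78.6%), gut (73.5% and 76.4%), neuroepithelium (74.7% and 70.0%) and neuromesodermal progenitors (67.4% and 66.5%). In endothelium, a class that should lack these genes, it was 10.5% and 13.5% in WT and 14.1% in both *Grhl3*-null libraries, at median depths of 35654.5 to 39227.5 UMIs per cell, beside 35092 and 34781.5 in WT neuroepithelium. Levels below are counts per 1000000 UMIs of a class summed in 1 library (CPM), given for the first and second WT and then the first and second *Grhl3*-null library, and in a sum of cells fewer expressing cells and less RNA per cell cannot be told apart.

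**Figure D1:**
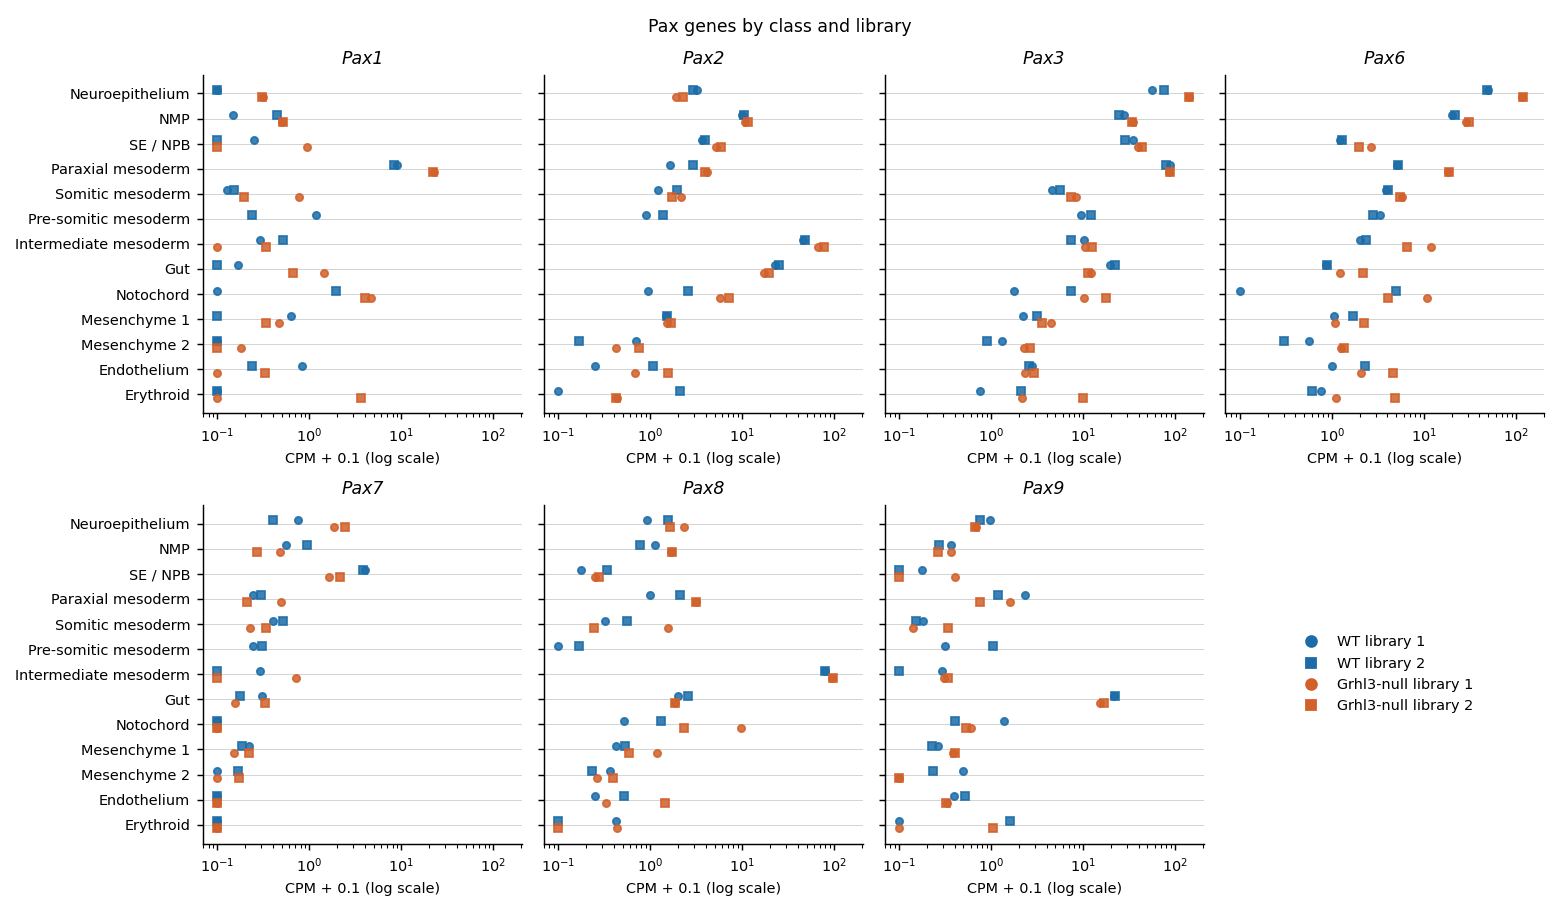
Level of each *Pax* gene (CPM + 0.1, log axis) in 13 classes, with 1 point for each library (WT blue, *Grhl3*-null orange). Pre-somitic mesoderm is shown with WT points only, and the unnamed cluster is not shown. *Pax1*, *Pax8* and *Pax9* peak in 1 class each, paraxial mesoderm, intermediate mesoderm and gut, while *Pax2*, *Pax3* and *Pax6* reach 5 CPM or more in several.

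The genotypes were compared wherever a member had at least 30 UMIs and a mean of at least 5 CPM in 1 genotype. These were 25 pairs of a gene and a class, of which 24 could be tested with edgeR over all genes of the class (*Pax3* in erythroid cells was removed by the filter on low counts). Of the 24, 17 passed an adjusted p of 0.05, 14 higher and 3 lower in *Grhl3*-null. Pairs under these limits were fitted too, and of 50 fits of a member in a class 25 passed. Passing pairs under the limits were all higher in *Grhl3*-null, apart from *Pax7* in surface ectoderm and neural plate border (log2 -1.15). They were those of *Pax7* and *Pax8* given below and others not followed further. The others were *Pax2* in paraxial mesoderm (log2 0.84), *Pax8* in neuromesodermal progenitors (0.91) and *Pax6* in mesenchyme 2 (1.81). *Pax3* in mesenchyme 1 (0.65) and in mesenchyme 2 (1.25) also belonged to them. In either direction, 918 of 13173 genes tested passed in mesenchyme 1 and 2492 of 12301 in mesenchyme 2. Of all genes tested, 25.3% passed in neuroepithelium (11.6% higher and 13.7% lower in *Grhl3*-null), 22.6% in paraxial mesoderm (9.52% and 13.1%), 20.3% in gut (9.99% and 10.3%), 19.2% in neuromesodermal progenitors (8.18% and 11%) and 16.1% in somitic mesoderm (8.04% and 8.04%). They were fewer in surface ectoderm and neural plate border (14.1%, 5.87% and 8.27%), the unnamed cluster (4.98%, 2.77% and 2.22%), notochord (3.53%, 1.69% and 1.84%) and intermediate mesoderm (2.15%, 0.951% and 1.2%). The groups of 2 libraries cannot reach p under 0.05 in an exact permutation test, whose smallest value is 0.333, so each call rests on the spread that edgeR shares across genes.

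**Figure D2:**
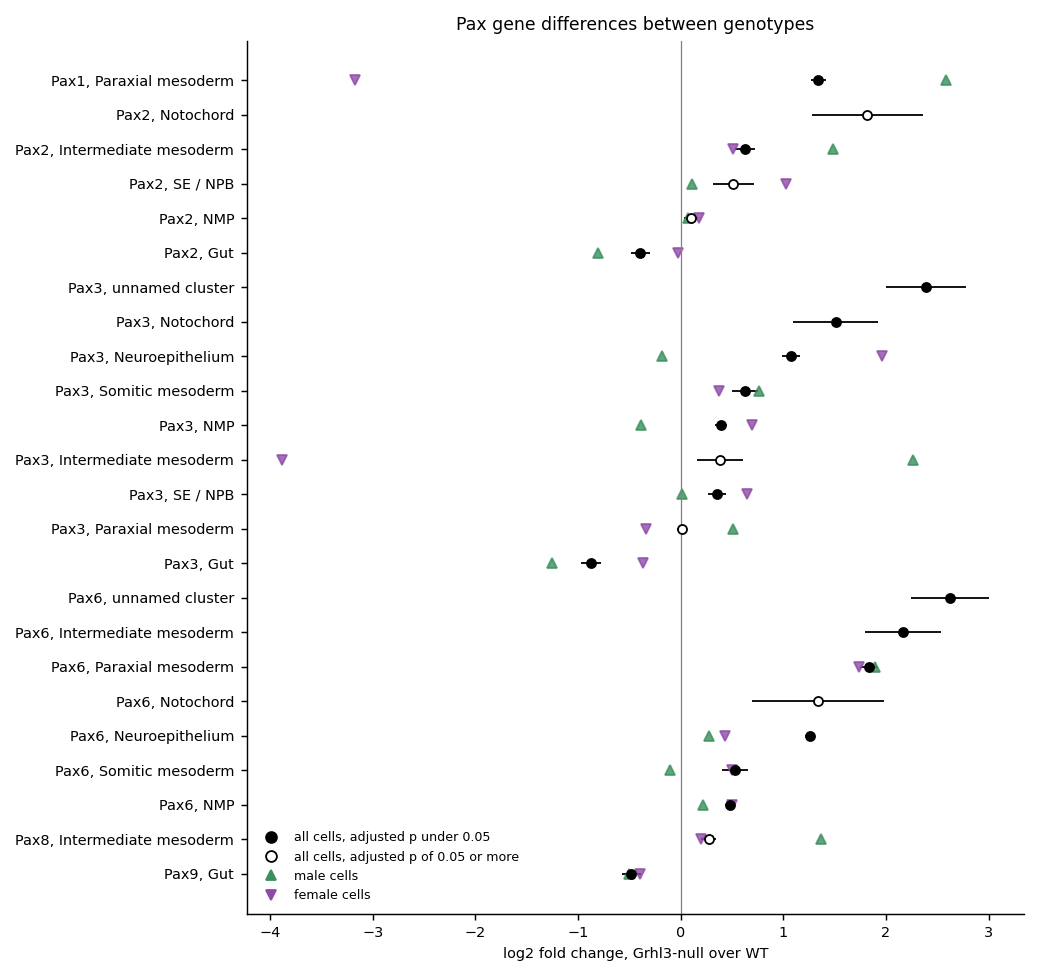
Log2 difference, *Grhl3*-null minus WT, of the 24 tested pairs with standard error (filled where the adjusted p is under 0.05), beside the values within male cells (upward triangles) and within female cells (downward triangles). *Pax3* and *Pax6* in neuroepithelium lie at 1.07 and 1.25 over all cells, and *Pax3* at -0.19 in male and 1.96 in female cells.

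*Pax3* (ENSMUSG00000004872, chr1:78101267-78197134 of mm10, minus strand) had its highest WT level in paraxial mesoderm, which held 39.6% of its UMIs in WT and 38.2% in *Grhl3*-null. There its level was 88.0, 80.0, 86.3 and 86.8 CPM. The 4 libraries overlapped, with means of 84.0 ± 5.62 (SD, n = 2) in WT and 86.5 ± 0.339 (SD, n = 2) in *Grhl3*-null, and the difference did not pass (log2 0.01, SE 0.043, adjusted p = 0.901). Of paraxial mesoderm cells, 82.9% and 83.3% of WT and 81.9% and 81.8% of *Grhl3*-null held a *Pax3* UMI, against 7.24% and 8.33% of WT endothelium cells.

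Neuroepithelium came next in WT at 56.3 and 76.0 CPM, with a mean of 66.2 ± 13.9 (SD, n = 2) whose SD range meets that of paraxial mesoderm, and *Grhl3*-null stood at 142 and 141 CPM. Both *Grhl3*-null libraries lay above both WT libraries, and the rise was 1.07 on the log2 scale (SE 0.089, adjusted p = 2.0e-06), where 11.6% of genes tested in this class passed as higher. When each cell was thinned to 7500 UMIs, 18.3% and 20.8% of WT and 37.9% and 33.9% of *Grhl3*-null neuroepithelium cells held *Pax3*, and 1.28% to 2.60% of endothelium cells did. In cells without a posterior Hox UMI the rise was 0.50 (adjusted p = 0.0013). With clusters at resolution 0.8 in place of 0.4 it was 0.23 (adjusted p = 0.43).

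In the other *Pax3* classes the direction was mixed. Surface ectoderm and neural plate border rose from 35.1 and 28.5 to 39.8 and 43.9 CPM (log2 0.35, SE 0.090, adjusted p = 0.0115, where 5.87% of genes passed as higher). Neuromesodermal progenitors, the caudal cells that give neural tube and mesoderm, rose from 27.6 and 24.3 to 34.5 and 34.2 CPM (log2 0.39, SE 0.055, adjusted p = 8.8e-04, beside 8.18% of genes). The WT means of these neighbouring classes, 31.8 ± 4.65 and 26.0 ± 2.38 CPM (SD, n = 2 each), did not differ beyond their SD. The rise in surface ectoderm and neural plate border was 0.01 (adjusted p = 0.98) in male cells, and it did not pass with DESeq2 (0.36, adjusted p = 0.16), without the second WT library (0.22, adjusted p = 0.12) or without the second *Grhl3*-null library (0.29, adjusted p = 0.17). Gut fell from 19.7 and 21.9 to 11.97 and 11.3 CPM, where the log2 difference was -0.87 (SE 0.099, adjusted p = 1.1e-06, beside 10.3% of genes as lower).

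Gut cells with a *Pax3* UMI after thinning made 9.32% and 13.6% of WT and 7.46% and 5.19% of *Grhl3*-null. Cells with a posterior Hox UMI made 65.2% and 70.7% of WT gut and 36.6% and 35.1% of *Grhl3*-null gut, and among gut cells without one the difference was 0.10 (adjusted p = 0.919). At lower levels, *Pax3* rose in somitic mesoderm from 4.52 and 5.52 to 8.27 and 7.23 CPM (log2 0.62, adjusted p = 0.00248, beside 8.04% of genes), a call not made within male (0.76, adjusted p = 0.092) or within female cells (0.37, adjusted p = 0.15). In the unnamed cluster, whose median depth was 15524 to 16480.5 UMIs per cell, it rose from 2.20 and 5.07 to 11.8 and 25.7 CPM on 7, 15, 18 and 40 UMIs (log2 2.39, adjusted p = 5.0e-05, beside 4.98% of genes in either direction). In notochord it rose from 1.69 and 7.34 to 10.1 and 17.6 CPM (log2 1.51, adjusted p = 0.0428, beside 3.53%), a call lost in 7 of 14 alternatives, among them those without the first WT library (0.93, adjusted p = 0.27) and without the second *Grhl3*-null library (1.06, adjusted p = 0.43), while the value was 3.01 without the second WT library. Intermediate mesoderm, at 7.21 to 12.4 CPM over the 4 libraries, did not pass (log2 0.38, adjusted p = 0.509).

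The sexes did not share 1 *Pax3* pattern. A cell was called male or female from its UMIs of 4 Y-linked genes and of *Xist*, and since cells of 1 sex come from the embryos of that sex in a pool, whose number is not given, sex and embryo cannot be told apart. In female neuroepithelium *Pax3* was at 52.4 and 66.7 CPM in WT and at 243 and 231 CPM in *Grhl3*-null. In male neuroepithelium it was at 123 and 193 CPM in WT and at 134 and 136 CPM in *Grhl3*-null, so that female libraries were apart and male libraries overlapped. The *Grhl3*-null female cells numbered 39 and 42, and the WT male cells 28 and 25. Within female cells the log2 difference was 1.96 (adjusted p = 1.4e-14) and within male cells -0.19 (adjusted p = 0.53), and the test of the difference between the sexes gave 2.14 (SE 0.17, adjusted p = 4.8e-10), where 15.2% of genes of the class passed.

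*Pax3* in paraxial mesoderm also went opposite ways in the sexes. Female cells stood at 98.4 and 89.2 CPM in WT and 84.2 and 61.7 CPM in *Grhl3*-null, and male cells at 75.1 and 70.5 CPM in WT and 102 and 107 CPM in *Grhl3*-null. Female cells were lower and male cells higher in both *Grhl3*-null libraries, and the female minus male difference of the genotype effect was -0.86 (SE 0.13, adjusted p = 8.5e-05, beside 15.3% of genes). In neuromesodermal progenitors female cells rose from 23.3 and 23.3 to 39.9 and 36.5 CPM, and male cells were at 37.2 and 27.5 CPM in WT and 25.3 and 23.9 CPM in *Grhl3*-null (adjusted p = 0.073 within males).

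**Figure D3:**
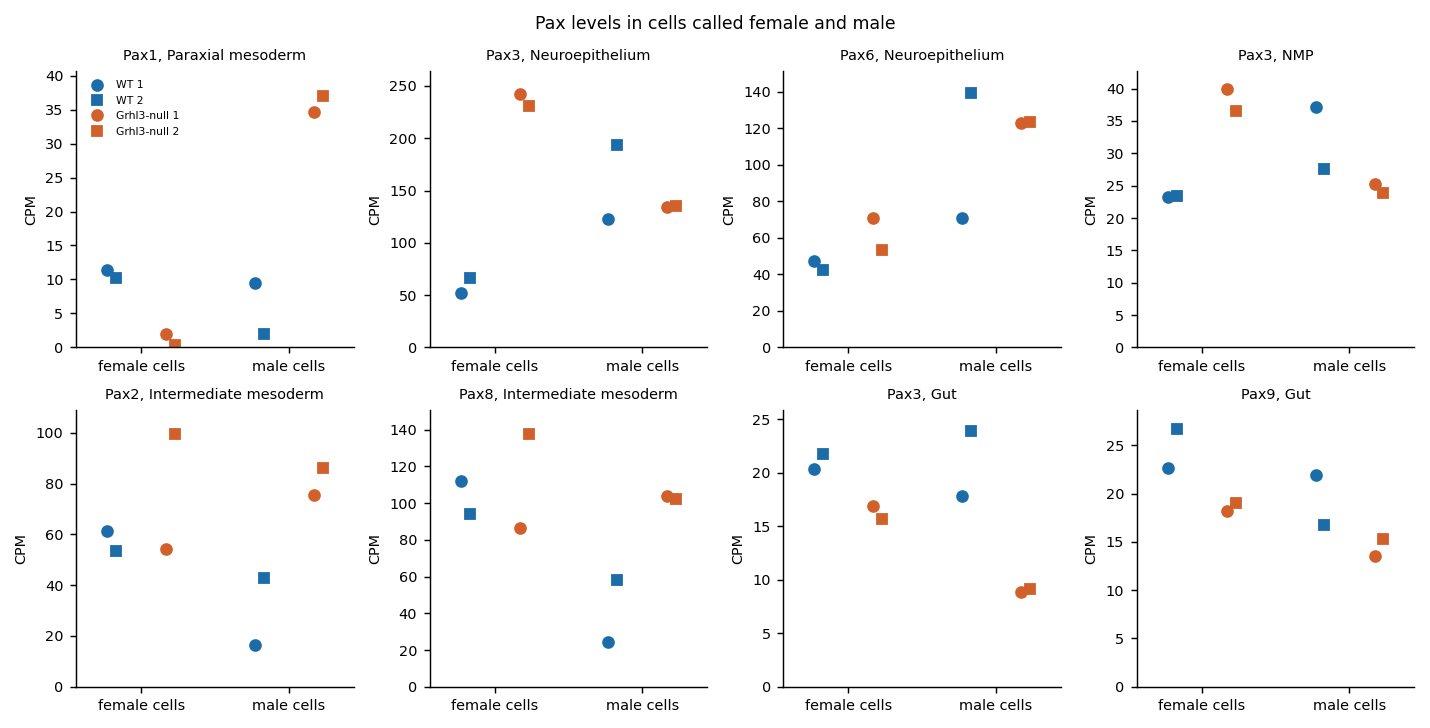
Levels (CPM) in cells called female and male in each library, 8 pairs of a gene and a class, WT blue and *Grhl3*-null orange. *Pax1* in paraxial mesoderm reaches 34.7 and 37.0 CPM in male and 1.92 and 0.320 CPM in female *Grhl3*-null cells.

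*Pax7* (ENSMUSG00000028736, chr4:139737062-139833528, minus strand), the paralogue of *Pax3*, stayed under the 5 CPM limit in every class, and its few counts are given as they are. Surface ectoderm and neural plate border held 52, 46, 20 and 23 UMIs, or 3.94, 3.68, 1.53 and 2.02 CPM. Neuroepithelium held 12, 5, 33 and 46 UMIs, or 0.648, 0.300, 1.74 and 2.35 CPM. No *Pax7* UMI was found in endothelium, erythroid cells, notochord or primordial germ cells, and 0 of 199 endothelium cells of the second *Grhl3*-null library allows a share of cells with a UMI of up to 1.51%, taking 3 cells as the limit of a count of 0.

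The *Pax7* libraries did not overlap between genotypes in either class, and the directions were opposite. The level fell by 1.15 on the log2 scale in surface ectoderm and neural plate border (SE 0.26, adjusted p = 0.00566, beside 8.27% of genes as lower) and rose by 2.04 in neuroepithelium (SE 0.37, adjusted p = 0.00139, beside 11.6% as higher). A difference between the sexes was not tested for *Pax7*. Cells with a *Pax7* UMI made 13.3%, 10.8%, 5.81% and 6.54% of surface ectoderm and neural plate border and 1.97%, 1.21%, 4.45% and 5.62% of neuroepithelium.

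With all UMIs, most cells with *Pax7* in these classes also held *Pax3*, while most cells with *Pax3* held no *Pax7* UMI. Of 67 neuroepithelium cells with *Pax7*, 67 also held *Pax3*, and of 89 surface ectoderm and neural plate border cells with *Pax7*, 81 did. At 7500 UMIs per cell the same was seen in 17 of 20 and in 8 of 16 cells, which is 2.56 and 3.13 times the number expected if the genes were independent within each library. Too few cells held *Pax7* at that depth to compare them with the others.

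*Pax3* was also found beside *Grhl3* in single surface ectoderm or border cells. At 7500 UMIs, 21 of 46 WT cells with *Grhl3* held *Pax3* in the first library (45.7%, 95% Clopper-Pearson interval 30.9% to 61.0%) and 36 of 203 cells without it did (17.7%, 12.7% to 23.7%). In the second WT library these were 8 of 36 (22.2%, 10.1% to 39.2%) and 21 of 186 (11.3%, 7.13% to 16.7%), whose intervals overlap. *Pax7* was in 2 of 46 and 4 of 36 cells with *Grhl3*. In *Grhl3*-null, 16.3% and 16.5% of the cells without *Grhl3* held *Pax3*. All such intervals cover counting error only.

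Neuroepithelium cells with *Pax3* were set against those without it within each library, both thinned to 7500 UMIs, which gave 84, 86, 187 and 187 cells with *Pax3*. Of the dorsal neural tube and neural crest list, 10 of 11 genes tested were higher and 0 lower in cells with *Pax3*, with a median log2 difference of 3.43 against -0.0024 over all genes. Of all 9570 genes tested, 2.27% were higher and 2.46% lower. The largest differences were those of *Foxd3* (6.50), an early neural crest gene, *Wnt1* (5.51) and *Lmx1a* (4.64), which mark the roof of the neural tube, and *Tfap2b* (4.22). *Olig3*, at -0.47, did not pass (adjusted p = 0.412).

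On the ventral and intermediate list 6 of 8 genes were lower in cells with *Pax3* and 0 higher, with a median of -2.57. Without the first *Grhl3*-null library 3 of 7 were lower (median -0.54), without the second 3 of 7 (median -0.73), and in WT libraries alone 3 of 6 (median -1.74). Over all libraries they were led by *Foxa2* (-6.35), a floor plate gene, *Olig2* (-5.75), which marks motor neuron progenitors, and *Nkx6-1* (-4.87) and *Nkx6-2* (-4.33). Of the 10 caudal progenitor genes, 2 were higher (*Wnt3a* 2.24, *Cdx1* 0.80) and 2 lower (*Cdx2* -0.47, *Sox2* -0.23), with a median of 0.06. The genotypes differed here, with 0 higher and 1 lower in WT libraries alone (median -0.24) and 5 higher and 1 lower in *Grhl3*-null libraries alone (median 0.69). Over all libraries *Pax6* differed by -0.70 on the log2 scale in cells with *Pax3* (SE 0.11, adjusted p = 2.8e-05).

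*Pax6* (ENSMUSG00000027168, chr2:105668900-105697364, plus strand) had its highest level in neuroepithelium, at 49.2, 48.1, 117 and 120 CPM. The libraries of a genotype lay close together and the genotypes far apart, with means of 48.7 ± 0.776 (SD, n = 2) in WT and 119 ± 1.63 (SD, n = 2) in *Grhl3*-null. The rise was 1.25 on the log2 scale (SE 0.042, adjusted p = 4.0e-10). After thinning, 23.8%, 24.9%, 48.6% and 45.1% of the cells held *Pax6*, and 0.658% to 1.28% of endothelium cells did.

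The size of the *Pax6* rise in neuroepithelium changed with the cells compared. It was 0.43 (adjusted p = 9.7e-05) in cells without a posterior Hox UMI and 0.55 (adjusted p = 6.0e-06) with clusters at resolution 0.8. Within female cells it was 0.43 (adjusted p = 0.017), from 47.2 and 42.3 to 70.6 and 53.2 CPM, and within male cells 0.28 (adjusted p = 0.45), with 70.7 and 139 CPM in WT and 123 and 123 CPM in *Grhl3*-null. Both were smaller than the value over all cells, and the difference between the sexes did not pass (0.14, adjusted p = 0.744).

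Neuromesodermal progenitors were second in WT at 20.3, 21.8, 28.7 and 30.8 CPM, a rise of 0.48 (SE 0.049, adjusted p = 1.5e-04) that turned to -0.54 (adjusted p = 0.021) with clusters at resolution 0.8. Paraxial mesoderm, a class not known for *Pax6*, was at 5.00, 5.19, 18.3 and 18.8 CPM (log2 1.83, SE 0.083, adjusted p = 2.7e-10, beside 9.52% of genes as higher). In that class, cells with both Y-linked and *Xist* UMIs, which no single cell of 1 sex should hold, made 16.4% and 18.1% of WT and 30.5% and 29.4% of *Grhl3*-null. *Pax6* stood at 10.9, 8.79, 23.9 and 23.7 CPM in those cells and at 2.94, 3.64, 12.9 and 13.9 CPM in the others, and without them the rise was 2.01 (adjusted p = 4.0e-09). In paraxial mesoderm 6 of 10 ventral and intermediate neural tube genes were also higher in *Grhl3*-null and 0 lower (median 0.71 against 0.0047 over all genes), among them *Neurog2* (1.54) and *Dbx2* (1.34). This was not particular to neural genes. Of 10 caudal progenitor genes 6 were higher and 0 lower (median 0.36), and of 11 intermediate mesoderm and kidney genes 5 were higher and 1 lower (median 0.33). Of 8 posterior Hox genes 0 were higher and 6 lower. The part of these genes in the *Pax6* rise was not tested.

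Of the other *Pax6* classes, somitic mesoderm was at 3.75, 3.95, 5.74 and 5.35 CPM (log2 0.52, adjusted p = 0.0101) and intermediate mesoderm at 1.90, 2.27, 11.8 and 6.42 CPM on 10, 11, 58 and 27 UMIs (log2 2.16, adjusted p = 0.00488). Without cells of mixed sex neither passed (0.19, adjusted p = 0.42, and 1.39, adjusted p = 0.071). The unnamed cluster was at 1.88, 4.06, 14.5 and 21.9 CPM (log2 2.62, adjusted p = 6.3e-06) and held no cell of mixed sex. Notochord, at 0, 4.89, 10.6 and 3.96 CPM, overlapped between genotypes and did not pass (log2 1.33, adjusted p = 0.314).

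Neuroepithelium cells with *Pax6* (109, 103, 240 and 249 cells at 7500 UMIs) had lower levels of most dorsal genes than cells without it. Of the dorsal and crest list 9 of 11 genes were lower and 0 higher, with a median of -1.99 against 0.00027 over all genes, while 1.95% of all 9545 genes were lower and 1.03% higher. Without the first or the second *Grhl3*-null library 7 of 9 were lower, with medians of -0.91 and -0.88, and in WT libraries alone 5 of 6, with a median of -0.92. Over all libraries *Tfap2b* (-3.77), *Foxd3* (-3.10), *Lmx1a* (-2.56) and *Msx2* (-2.22) differed most. On the ventral and intermediate list 4 of 8 were higher, *Dbx2* (2.32), *Irx3* (0.97), *Irx5* (0.84) and *Neurog2* (0.67), all genes of intermediate progenitors, and 1 was lower, the floor plate gene *Foxa2* (-3.48). Of the 10 caudal progenitor genes 7 were lower, among them *Cyp26a1* (-2.34), *Fgf8* (-1.99) and *T* (-1.37), and 1 was higher (*Hes3* 0.73). In WT libraries alone 6 of the 10 were lower and 0 higher (median -1.49), and in *Grhl3*-null libraries alone 2 were lower and 1 higher (median -0.44). Over all libraries *Pax3* differed by -0.91 in cells with *Pax6* (SE 0.091, adjusted p = 2.8e-11).

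**Figure D4:**
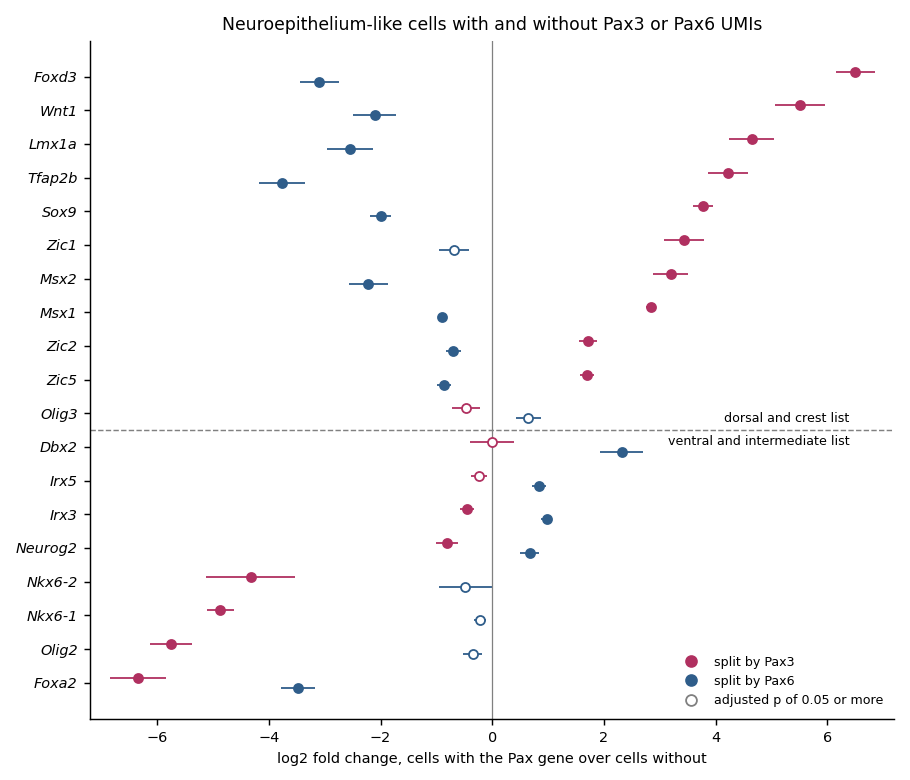
Log2 difference ± SE of dorsal and crest genes and of ventral and intermediate genes between neuroepithelium cells with and without *Pax3*, and with and without *Pax6*, at 7500 UMIs per cell. Dorsal genes lie above 0 for *Pax3* (median 3.43) and below 0 for *Pax6* (median -1.99), apart from *Olig3*, and the ventral genes split for *Pax6*, with *Dbx2* at 2.32 and *Foxa2* at -3.48.

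*Pax3* and *Pax6* were found together in 167 neuroepithelium cells at 7500 UMIs, 0.771 times the 217 expected if they were independent within each library. The ratio was 0.650, 0.888, 0.770 and 0.771 in the 4 libraries, so it lay below 1 in each. It was 0.773 after removal of doublets and 0.964 with all UMIs. In neuromesodermal progenitors the same genes met in 80 cells where 57.7 were expected (1.39), with ratios of 1.70, 1.59, 1.17 and 1.29, above 1 in each library. With all UMIs that ratio was 1.06, so the 2 classes lay closer together at that depth.

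The genes of the neural lists also differed between the genotypes in neuroepithelium as a whole, where all genes had a median log2 difference of 0.0033. There, 11.6% of all genes tested passed as higher in *Grhl3*-null and 13.7% as lower. Of 15 dorsal and crest genes tested, 11 were higher and 0 lower in *Grhl3*-null, with a median of 1.33, led by *Zic1* (2.76), *Tfap2b* (2.28), *Lmx1b* (2.11) and *Sox9* (2.01). Of 10 ventral and intermediate genes, 8 were higher and 0 lower (median 0.81), led by *Shh* (1.74) and *Olig2* (1.34). Of 10 caudal progenitor genes, 7 were lower and 1 higher (median -1.57), and of 8 posterior Hox genes 7 were lower and 1 higher (median -5.18). Markers of border and surface ectoderm moved as well, with 10 of 13 higher and 1, *Grhl3* itself, lower (median 1.35). The shift of these lists, the share of cells with posterior Hox UMIs and the sex of the cells moved together with *Pax3* and *Pax6*, and their part in those differences was tested only by the subsets given above.

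Over the classes of WT, with 26 points of a class and library, the genes whose level on the log2(CPM + 1) scale followed that of *Pax3* most closely among 11554 genes were *Zic2* (Pearson r 0.867), *Jade1* (0.858) and *Ptn* (0.840). For *Pax6* they were *Gdf10* (0.966), *Mir124-2hg* (0.940) and *Fgfbp3* (0.922). Points of a library share its depth and both libraries share a pool, so these values are descriptions.

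*Pax1* (ENSMUSG00000037034, chr2:147361925-147393295, plus strand), which acts in the sclerotome, the part of the somite that forms the vertebrae, was almost confined to paraxial mesoderm. That class held 87.4% of its UMIs in WT and 90.6% in *Grhl3*-null. Its level there was 8.93, 8.21, 22.6 and 21.7 CPM on 250, 209, 880 and 792 UMIs. Both *Grhl3*-null libraries lay above both WT libraries, with means of 8.57 ± 0.506 and 22.2 ± 0.594 (SD, n = 2 each), and the rise was 1.34 on the log2 scale (SE 0.073, adjusted p = 3.2e-09). The second highest WT class, notochord, held 0, 6, 9 and 9 UMIs, and no other class had more than 24 *Pax1* UMIs in a library.

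The sexes went opposite ways for *Pax1*. Male paraxial mesoderm cells were at 9.50 and 2.01 CPM in WT (31 and 6 UMIs) and at 34.7 and 37.0 CPM in *Grhl3*-null (537 and 522 UMIs). Female cells were at 11.4 and 10.2 CPM in WT (197 and 150 UMIs) and at 1.92 and 0.320 CPM in *Grhl3*-null (7 and 1 UMIs, from 67 and 61 cells). Male cells were higher in both *Grhl3*-null libraries (log2 2.59, adjusted p = 4.4e-07) and female cells lower in both (-3.18, adjusted p = 5.9e-06), and the difference between the sexes was -5.77 (SE 0.51, adjusted p = 4.5e-08).

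The sclerotome list did not follow *Pax1* as a whole between genotypes. Of 9 genes tested in paraxial mesoderm 4 were higher and 4 lower in *Grhl3*-null, with a median of 0.05 against 0.0047 over all genes. *Sox9* (0.45) and *Meox2* (0.34) were among the higher ones, and *Foxc2* (-0.32) was lowest. Of 8 dermomyotome and muscle genes, 2 were higher and 2 lower, with a median of -0.01. In the same class 9.52% of all genes tested passed as higher and 13.1% as lower.

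Within libraries, cells with *Pax1* could be compared with those without (26, 23, 69 and 65 cells at 7500 UMIs). Of 9 sclerotome genes 4 were higher in cells with *Pax1* and 0 lower, among them *Sox9* (1.99), *Twist1* (1.66) and *Meox2* (0.91), with a median of 0.52 against -0.012 over all genes, while 1.99% of all 9956 genes were higher. Of 6 dermomyotome and muscle genes 3 were lower, *Dmrt2* (-2.67), *Sim1* (-2.28) and *Tcf15* (-0.20), beside 1.77% of all genes. This count was 1 of 6 without the first *Grhl3*-null library, 2 without either WT library and 0 of 6 in WT libraries alone, where 2 of 9 sclerotome genes were higher. *Pax3*, which marks the dermomyotome, differed by -0.97 in cells with *Pax1* (SE 0.16, adjusted p = 4.4e-07). *Pax1* and *Pax3* met in 44 cells where 82.0 were expected (0.536), and the ratio lay between 0.482 and 0.621 in the 4 libraries. With all UMIs it was 0.855.

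Genes whose level followed that of *Pax1* closely over the WT classes (26 points) included *Kcnn3* (Pearson r 0.923) and *Ripply2* (0.918).

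*Pax9* (ENSMUSG00000001497, chr12:56691767-56712822, plus strand), which acts in the pharyngeal endoderm and joins *Pax1* in the sclerotome, had 76.5% of its WT and 77.4% of its *Grhl3*-null UMIs in gut. Its level there was 21.5, 22.3, 15.3 and 16.8 CPM on 314, 288, 273 and 295 UMIs. Both *Grhl3*-null libraries lay below both WT libraries, with means of 21.9 ± 0.529 and 16.1 ± 1.05 (SD, n = 2 each), and the level fell by 0.48 on the log2 scale (SE 0.089, adjusted p = 4.7e-04). At 7500 UMIs the share of gut cells with *Pax9* was 9.68%, 13.2%, 11.4% and 14.3%, which overlapped between genotypes and did not follow the order of the levels. No endothelium cell held *Pax9* at that depth, and 0 of 199 in the second *Grhl3*-null library allows a share of up to 1.51% by the same limit of 3 cells.

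The *Pax9* difference was -0.40 (adjusted p = 0.063) in female and -0.50 (adjusted p = 0.039) in male gut cells, and the sexes did not differ (0.10, adjusted p = 0.836). In gut cells without a posterior Hox UMI it was -0.35 (adjusted p = 0.34). *Ihh* was the gene most like *Pax9* over the WT classes (r 0.954), followed by *Serpinf2* (0.934) and *Hkdc1* (0.927). Of the foregut and pharyngeal endoderm list 3 of 7 genes were lower and 0 higher in *Grhl3*-null gut, *Isl1* (-0.57), *Hhex* (-0.55) and *Sox17* (-0.31), with a median of -0.07 against 0.0021 over all genes. Of 10 caudal progenitor genes in gut, 8 were lower and 0 higher (median -0.59). Among all genes tested in gut, 10.3% passed as lower and 9.99% as higher.

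Paraxial mesoderm was second for *Pax9*, at 2.21, 1.10, 1.51 and 0.659 CPM, which overlapped between genotypes and did not pass (log2 -0.64, SE 0.34, adjusted p = 0.205). The first library of each genotype was higher than the second. Of 131 paraxial mesoderm cells with *Pax9*, 71 also held *Pax1*. At 7500 UMIs they met in 8 cells where 2.11 were expected (3.78), 3 in the first WT and 5 in the first *Grhl3*-null library and 0 in the second libraries. *Pax9* was higher in cells with *Pax1* by 2.56 (SE 0.79, adjusted p = 0.0364), a call lost after removal of doublets (2.33, adjusted p = 0.117).

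*Pax8* (ENSMUSG00000026976, chr2:24420560-24475599, minus strand), which acts with *Pax2* to form the pronephric duct, was at 79.7, 78.7, 93.3 and 95.8 CPM in intermediate mesoderm. That class held 71.2% of its UMIs in WT and 57.2% in *Grhl3*-null, with 119, 112, 107 and 98 cells. Both *Grhl3*-null libraries were above both WT libraries, with means of 79.2 ± 0.746 and 94.5 ± 1.81 (SD, n = 2 each), but the difference did not pass (log2 0.27, SE 0.072, adjusted p = 0.0761). Cells with *Pax8* made 38.7%, 42.9%, 53.3% and 39.8% of the class at 7500 UMIs, and at most 0.641% of endothelium. At 0.893, 2.00, 3.03 and 3.08 CPM it rose in paraxial mesoderm (log2 1.07, SE 0.24, adjusted p = 0.00443), a class where its level is under 5 CPM.

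*Pax2* (ENSMUSG00000004231, chr19:44756045-44837871, plus strand) was highest in the same class, at 45.2, 48.4, 66.1 and 77.0 CPM on 238, 235, 324 and 324 UMIs. The genotypes did not overlap, with means of 46.8 ± 2.28 and 71.6 ± 7.72 (SD, n = 2 each), and the rise was 0.63 on the log2 scale (SE 0.095, adjusted p = 0.00206, beside 0.951% of genes as higher). Gut was next and went the other way, from 22.4 and 24.7 to 17.3 and 19.5 CPM, a fall by 0.39 on the log2 scale (SE 0.089, adjusted p = 0.00286). This fall was -0.81 in male and -0.02 (adjusted p = 0.95) in female gut cells, and it did not pass with DESeq2 (-0.40, adjusted p = 0.11). Neuromesodermal progenitors, which held the most *Pax2* UMIs in WT (32.9%), were at 9.76, 10.4, 10.6 and 11.3 CPM and did not pass (log2 0.10, adjusted p = 0.369).

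The genotype effect on *Pax2* was compared between these classes. Against neuromesodermal progenitors it was higher by 0.52 in intermediate mesoderm (SE 0.12, adjusted p = 0.0392, where 1.53% of genes passed) and it differed by -0.51 in gut (SE 0.12, adjusted p = 0.0172, where 4.95% passed). The first call was lost when any 1 of the 4 libraries was left out (0.46 to 0.59, adjusted p from 0.063 to 0.19), and the second without the first WT library (-0.53, adjusted p = 0.061), the second WT library (-0.48, adjusted p = 0.11) or the first *Grhl3*-null library (-0.46, adjusted p = 0.11). Surface ectoderm and neural plate border, at 3.56, 3.84, 5.13 and 5.72 CPM, did not overlap between genotypes and did not pass (log2 0.51, adjusted p = 0.0982). Notochord held 2, 8, 11 and 16 UMIs, or 0.843 to 7.04 CPM, and did not pass (log2 1.82, adjusted p = 0.0614). Of these, 1, 5, 10 and 16 UMIs lay in cells of mixed sex, at 6.30, 6.98, 14.2 and 23.9 CPM, against 0.452, 1.17, 0.787 and 0 CPM in the other notochord cells.

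By sex, *Pax2* in intermediate mesoderm was at 61.1, 53.3, 54.2 and 99.6 CPM in female and at 16.6, 42.8, 75.5 and 86.0 CPM in male cells, and *Pax8* at 112, 94.2, 86.5 and 138 CPM in female and at 24.1, 58.1, 104 and 102 CPM in male cells. For both genes the male libraries did not overlap between genotypes and the female libraries did. Male cells rose by 1.48 (adjusted p = 1.1e-04) and 1.37 (adjusted p = 8.1e-05), and the female minus male differences were -0.97 (adjusted p = 0.0465) for *Pax2* and -1.17 (adjusted p = 0.00404) for *Pax8*, where 10.2% of genes passed. Male cells made 19.3% and 21.4% of WT and 64.5% and 64.3% of *Grhl3*-null intermediate mesoderm.

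*Pax2* and *Pax8* were found in the same cells. At 7500 UMIs, 98 intermediate mesoderm cells held both where 60.5 were expected (1.62), with ratios of 1.78, 1.75, 1.42 and 1.63 in the 4 libraries. *Pax8* was in 68.8%, 75%, 75.7% and 64.9% of cells with *Pax2* and in 27.6%, 30%, 41.4% and 24.6% of cells without. *Pax8* was higher in cells with *Pax2* by 1.38 (SE 0.16, adjusted p = 3.8e-08), and *Pax2* in cells with *Pax8* by 1.95 (SE 0.21, adjusted p = 3.2e-18). Over the WT classes *Pax8* ranked 7th among the genes most like *Pax2* (r 0.767), after *Prr15* (0.912), *Gnaz* (0.843) and *Epb41l4b* (0.810), and the genes most like *Pax8* were *Gpx6* (0.942), *Sst* (0.934) and *Igsf5* (0.921).

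**Figure D5:**
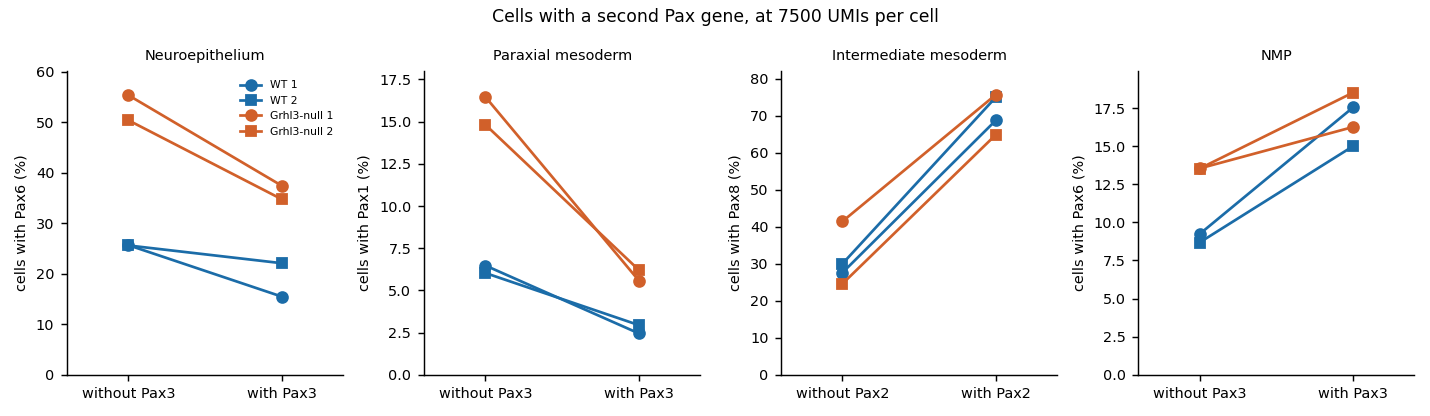
Share of cells (percent, at 7500 UMIs per cell) that held the second *Pax* gene among cells with and without the first, 4 pairs of genes in their classes, 1 pair of points per library. *Pax8* is in 64.9% to 75.7% of intermediate mesoderm cells with *Pax2* and in 24.6% to 41.4% of those without, while with *Pax3* the shares of *Pax6* in neuroepithelium and of *Pax1* in paraxial mesoderm are lower, and that of *Pax6* in neuromesodermal progenitors is higher, in each library.

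The kidney genes were split by both members. Among intermediate mesoderm cells with *Pax2*, 6 of 10 genes of the intermediate mesoderm and kidney list were higher and 1 lower, with a median of 1.30 against -0.0083 over all genes, while 2.79% of all 5743 genes were higher and 1.34% lower. The higher ones included *Ret* (2.13) and *Gfra1* (2.01), receptors of the ureteric bud, *Bmp7* (2.10) and *Emx2* (1.75). The lower one was *Osr1* (-1.42), an early intermediate mesoderm gene, and *Wt1*, at -1.18, did not pass (adjusted p = 0.0684).

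Among cells with *Pax8*, 5 of 9 of these genes were higher and 1 lower (median 1.13 against 0.00026 over all genes), led by *Ret* (2.18) and *Gfra1* (2.13), with *Osr1* the lower one. By comparison, 3.06% of all 5986 genes were higher and 1.64% lower. Between genotypes, 1 of 10 kidney genes was higher and 1 lower in *Grhl3*-null intermediate mesoderm, *Lhx1* at 0.34 and *Wt1* at -1.95, with a median of 0.01 against -0.0018 over all genes. There, 0.951% of all genes tested passed as higher and 1.2% as lower.

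The genotype effect was also compared between classes for *Pax3* and *Pax6*, against the class with the most WT UMIs of the gene. For *Pax3*, against paraxial mesoderm, it was higher by 1.05 in neuroepithelium (SE 0.11, adjusted p = 3.3e-06, where 10.2% of genes passed) and it differed by -0.90 in gut (SE 0.10, adjusted p = 3.7e-05, beside 7.01%), while surface ectoderm and neural plate border, at 0.33, did not pass (adjusted p = 0.0535). For *Pax6*, against neuromesodermal progenitors, it was higher by 1.34 in paraxial mesoderm (SE 0.095, adjusted p = 2.2e-06, beside 3.86%) and by 0.78 in neuroepithelium (SE 0.062, adjusted p = 4.2e-07, beside 11.3%), and somitic mesoderm, at 0.04, did not pass (adjusted p = 0.973). Of the 19 such tests over *Pax2*, *Pax3* and *Pax6*, 11 passed. They were not run within 1 sex or with other clusters. In male neuroepithelium cells *Pax3* was at 123 and 193 CPM in WT and at 134 and 136 CPM in *Grhl3*-null. In male paraxial mesoderm cells *Pax3* was at 75.1 and 70.5 CPM in WT and at 102 and 107 CPM in *Grhl3*-null.

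The other *Pax3* differences that passed against paraxial mesoderm were those of neuromesodermal progenitors (0.39, adjusted p = 0.0084, beside 3.86% of genes), somitic mesoderm (0.61, adjusted p = 0.0119, beside 2.89%) and the unnamed cluster (2.36, adjusted p = 0.00123, beside 1.2%). The first of these was lost without the first *Grhl3*-null library (adjusted p = 0.074), the somitic one without the first WT (adjusted p = 0.13) or the first *Grhl3*-null library (adjusted p = 0.24), and that of the unnamed cluster without the first WT (adjusted p = 0.093) or the second *Grhl3*-null library (adjusted p = 0.20). Those of notochord (1.48, beside 0.876%), intermediate mesoderm (0.36, beside 1.37%) and erythroid cells (2.28, beside 0.174%) did not, and 7.06% of genes passed in surface ectoderm and neural plate border. For *Pax6* the unnamed cluster (2.14, adjusted p = 0.00352, beside 1.07%) and intermediate mesoderm (1.70, adjusted p = 0.0291, beside 1.53%) passed, and notochord (0.81, beside 0.442%) did not, while 0.627% of genes passed in somitic mesoderm. The call of the unnamed cluster was lost without the first WT library (1.66, adjusted p = 0.18), and that of intermediate mesoderm without the first WT (adjusted p = 0.19), the second WT (adjusted p = 0.12) or the first *Grhl3*-null library (1.11, adjusted p = 0.30). For *Pax2* the differences of notochord (1.72, beside 0.442%) and of surface ectoderm and neural plate border (0.40, beside 4.47%) did not pass.

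Sex was tested in the same way in 19 pairs, of which 10 passed. The share of all genes that passed was 7.02% in gut, 7.06% in somitic mesoderm, 10.2% in intermediate mesoderm, 10.8% in neuromesodermal progenitors, 11.2% in surface ectoderm and neural plate border, 15.2% in neuroepithelium and 15.3% in paraxial mesoderm. None of the 5 *Pax6* pairs passed. The *Pax2* pairs of gut (0.78, adjusted p = 0.0212) and intermediate mesoderm passed, and those of neuromesodermal progenitors (0.11) and of surface ectoderm and neural plate border (0.92) did not.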

How the data were processed

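Libraries were made by the authors with 10x Genomics 3′ v3.1 chemistry and counted with Cell Ranger on mm10. The deposited values are raw UMI counts per gene and barcode, with no normalization. Members, gene lists and tests were chosen with earlier results of these data known. Kept were cells with at least 3000 genes, 7500 UMIs and at most 7% mitochondrial UMIs. Kept cells of a library summed to 209833527 to 226723903 UMIs, and the libraries of a pool differed by more than counting noise (chi-square per degree of freedom 8.20 in WT and 14.4 in *Grhl3*-null).

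Cells were merged without integration and clustered with Seurat 5.3.0 and sctransform 0.4.2 (3000 variable genes less the *Pax* genes, 30 components, 20 neighbours, resolution 0.4). A cluster was named where at least 3 of its 30 leading genes were markers of 1 type in the study's list, which was chosen on these cells, and these were more than 1.5 times as many as for any other type, with *Pax6* left out of the list. The cluster named intermediate mesoderm has *Pax8* and *Pax2* among its leading genes. UMI counts were summed by class and library where each library had 20 cells and tested with edgeR 4.0.16 (quasi-likelihood test, TMM, filterByExpr, Benjamini-Hochberg adjustment over all genes of the class) in R 4.3.3, with DESeq2 1.42.0 as an alternative. Differences between classes or sexes were tested as interaction terms. Cells with and without a *Pax* UMI were compared at 7500 UMIs per cell with the library as a block, where each library had 10 cells with it. On simulated counts with 200 changed genes of log2 size 2 the test found 184 in neuroepithelium and 180 in intermediate mesoderm, with 12 and 9 wrong calls. Most *Pax* differences above are smaller than that size.

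Named were all members in the pairs defined in the text, at most 4 genes of each list with the largest difference among those that passed, and the 3 genes most like a member, less some that are not reported here. A few more list genes, and *Ttr*, *Rbp4* and *T* in gut, were named after their values were seen. A cell was male with at least 2 UMIs of *Ddx3y*, *Eif2s3y*, *Kdm5d* and *Uty* and at most 2 of *Xist*, female with at least 3 of *Xist* and at most 1 of the others, and of mixed sex with at least 2 and 3. The automatic Scrublet threshold marked under 0.5% of cells, so the top 5% by score were removed as doublets in an alternative only. Cells without posterior Hox UMIs, cells without mixed sex and the test between sexes were added after the data were seen.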

Additional observations from a re-analysis of the deposited data

Results flagged for a closer look

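The genotype effect on a *Pax* gene differed between classes in 11 of 19 tests, each an interaction term against the class with the most WT UMIs of the gene. With 1 library left out, 6 to 9 of the 19 passed. These tests were not run within 1 sex or with other clusters. For *Pax2*, against neuromesodermal progenitors, the difference in log2 was 0.52 in intermediate mesoderm and -0.51 in gut. For *Pax3*, against paraxial mesoderm, it was 1.05 in neuroepithelium, 0.39 in neuromesodermal progenitors, 0.61 in somitic mesoderm, 2.36 in the unnamed cluster and -0.90 in gut, the only negative *Pax3* value among those that passed. For *Pax6*, against neuromesodermal progenitors, it was 0.78 in neuroepithelium, 1.34 in paraxial mesoderm, 1.70 in intermediate mesoderm and 2.14 in the unnamed cluster.

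The genotype effect also differed between cells called female and male in 10 of 19 tests, female minus male. It was -5.77 for *Pax1* in paraxial mesoderm, and for *Pax3* 2.14 in neuroepithelium, 1.08 in neuromesodermal progenitors, 0.63 in surface ectoderm and neural plate border, 0.89 in gut, -0.86 in paraxial mesoderm and -6.14 in intermediate mesoderm. For *Pax2* it was 0.78 in gut and -0.97 in intermediate mesoderm, and for *Pax8* -1.17 in intermediate mesoderm. The shares of all genes that passed this test were 7.02% to 15.3% in these classes. The *Pax3* value of intermediate mesoderm rests on 21 and 20 female *Grhl3*-null cells with 0 and 1 UMIs and on male cells of the second WT library with 0 UMIs, so its size depends on the prior count of the fit and is not an estimate of a fold. Sex and embryo cannot be told apart in these pools.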

How the results depend on the processing

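Of the 24 genotype tests, 17 passed. With the replicate number as a block 19 passed, and 12 of the 19 differences between classes in place of 11. With 2 pairs that share only a number, the numbers do not pair the samples. DESeq2 gave 12, with 2 calls lost and some pairs without an adjusted p. In male cells 9 of the 18 pairs tested passed, and in female cells 11 of 18. The share of all genes that passed within 1 sex is not given, so these 2 counts cannot be set against it. Leaving out 1 library gave 15 to 17, and 6 (without WT library 1 or *Grhl3*-null library 1) to 9 of the differences between classes.

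The log2 difference changed sign in female cells for *Pax1* in paraxial mesoderm (-3.18) and for *Pax3* in intermediate (-3.88) and paraxial mesoderm (-0.34), and in male cells for *Pax3* in neuroepithelium (-0.19) and neuromesodermal progenitors (-0.39) and *Pax6* in somitic mesoderm (-0.10). In cells without posterior Hox UMIs it did so for *Pax3* in gut (0.10) and paraxial mesoderm (-0.049). *Pax6* in neuromesodermal progenitors was at -0.54 with clusters at resolution 0.8 and at -0.080 with *Pax* genes kept in the clustering. *Pax2* in surface ectoderm and neural plate border was at -0.0099 in the log-normalised clustering. *Pax3* in paraxial mesoderm was at -0.0067 without doublets, at -0.014 with a mitochondrial limit of 5% and between -0.061 and 0.085 when 1 library was left out. Without 1 library the *Pax6* effect against neuromesodermal progenitors ran from -0.063 to 0.13 in somitic mesoderm and from -0.084 to 9.57 in notochord. Beyond the subsets themselves, the cause was not tested.

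Comparing cells with and without a *Pax* UMI gave 452 genes for *Pax3*, 284 for *Pax6*, 374 for *Pax1*, 237 for *Pax2* and 281 for *Pax8*. Without thinning, these were 1080, 1054, 1289, 1246 and 1034. Cells with a UMI then had the higher median depth in most libraries. The exceptions were *Pax6* in the second *Grhl3*-null library (32658 against 33334 UMIs) and *Pax8* in the first WT library (35023 against 35755). WT libraries alone gave 107 for *Pax3*, 187 for *Pax6*, 33 for *Pax1* and 128 for *Pax8*, and *Grhl3*-null libraries alone 53 for *Pax2* and 143 for *Pax8*. Without 1 library the counts ran from 213 to 370, 180 to 276, 188 to 327, 142 to 286 and 183 to 240. At this depth *Pax7* could not be tested by cell, and no *Pax7* level reached 5 CPM.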

Other observations

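The gut class was not uniform in *Pax2* and *Pax9*. At 7500 UMIs per cell, *Ttr*, which encodes a thyroxine carrier of yolk sac endoderm and liver, was at 236 and 321 CPM in WT gut cells with neither gene, at 12.7 and 9.52 CPM in those with *Pax9* alone and at 0 and 3.92 CPM in those with *Pax2* alone. *T*, a gene of the primitive streak and notochord, was at 91.9 and 118 CPM in WT cells with neither and at 242 and 192 CPM in those with *Pax2* alone. These genes were chosen after their values were seen, and no test was run. *Pax2* and *Pax9* were in the same cell 6, 4, 4 and 6 times in the 4 libraries, with observed over expected ratios of 1.88, 0.796, 1.13 and 1.05.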
